A study of Mus musculus with 12 samples.

Results

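The messenger RNAs of 10 genes that encode subunits and initiation factors of RNA polymerase I (Pol I) were followed through mouse B-cell activation. They were Polr1a, Polr1b, Polr1c, Polr1d, Polr1e, Twistnb (now named Polr1f), Znrd1 (now named Polr1h), Rrn3, Ubtf and Taf1d, found as the rows of the gene count table that carry their Entrez gene identifiers, 10 of 27179 genes in all. The rule itself uses no measured value. The 12 libraries came from 6 stages of B cells from male mice of strain C57BL/6, with 2 biological replicates at each stage. Naive B cells were untreated splenic B cells sorted by surface markers that included B220, IgM and high IgD, without the T-cell receptor. The other stages came from negatively isolated B cells cultured with lipopolysaccharide (LPS) of Salmonella typhosa, a bacterial cell-wall component that activates B cells through Toll-like receptor 4. At 3 h, 10 h and 33 h the cells, loaded with the division dye CellTrace Violet, were sorted as CD69+ and undivided. On day 4 the culture was sorted into expanded activated B cells (CD22+ CD138-, called expanded here) and plasmablasts (CD22- CD138+), the antibody-secreting cells. The day 4 cultures were started at a lower cell density than those for 3 h, 10 h and 33 h. A comparison between them also carries that difference, whose part was not tested. Only the naive cells were never cultured, so culture and LPS cannot be told apart in a comparison with them.

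Pol I transcribes the ribosomal RNA genes in the nucleolus and is devoted to the long precursor of most ribosomal RNAs, whose synthesis limits how many ribosomes a cell can build. Its large subunits RPA1 and RPA2 form the active centre, some smaller subunits are shared with Pol III or with all the nuclear polymerases, and others belong to Pol I alone. Recruitment needs UBF, which binds along the ribosomal DNA, the TBP-containing complex SL1 at the promoter, and RRN3 (TIF-IA), which joins the polymerase to SL1 and is a target of growth signalling. B cells that are about to divide many times, and plasmablasts that export antibody, both depend on ribosomes. These libraries were made from polyadenylated RNA, so they measure the messengers of the machinery and not ribosomal RNA or Pol I activity.

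The E-box CACGTG, the best-known site of MYC, was searched because Myc is in one of the gene lists compared here. Both strands of the RefSeq promoters of assembly GRCm38.p6 were read, from 250 bases before to 50 after each start listed there. The E-box reads the same on both strands. All 10 genes matched the table, with 16 promoters between them. The promoters of Ubtf, Polr1d and Taf1d did not reach the outer start of the gene span given below. Within the searched promoters, Rrn3 alone of the 10 genes held the motif, with 2 copies that began 215 and 48 bases before its start. Of all 27025 genes with a promoter, 8.09% held it in at least 1 promoter. Both stretches are shown from the plus strand, the strand of Rrn3, with the motif in capitals, and lie at chr16:13780459-13780514 and chr16:13780626-13780681.
Rrn3 distal E-box: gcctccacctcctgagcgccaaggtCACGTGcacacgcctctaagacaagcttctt
Rrn3 proximal E-box: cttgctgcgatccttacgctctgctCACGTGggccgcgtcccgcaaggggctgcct

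The ETS core CCGGAA (reverse complement TTCCGG), common in promoters of housekeeping genes, stood in promoters of 3 of the 10 genes, Polr1c, Polr1e and Rrn3, and in those of 16.7% of all genes. In Polr1c it began 42 bases before the start, and the stretch chr17:46248057-46248112 is shown from the minus strand, on which Polr1c lies. These matches are descriptions of letters, and no factor's binding was measured.
Polr1c ETS core: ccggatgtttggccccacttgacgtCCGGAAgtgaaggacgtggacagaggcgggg

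Total counts ran from 23026619 (3 h replicate 1) to 60585587, with a median of 37839944, and the fewest counts behind any value of the 10 genes were 577 (Polr1e in plasmablast replicate 1). The B-cell markers Cd79a, Cd79b and Ms4a1 were present at every stage, and the summed plasmablast markers (Sdc1, Jchain, Prdm1, Xbp1) were highest in the plasmablast libraries. T-cell markers summed to at most 7.75 CPM (counts scaled to library size) in any library. Myeloid markers summed to 121 to 274 CPM and erythroid markers to 146 to 196 CPM in the naive libraries, against at most 37.4 and 2.11 CPM at the other stages, so a comparison with naive cells also carries that difference, whose part in the results was not tested. In bulk RNA, fewer cells that express a gene and less messenger per cell cannot be told apart, and all values are relative to the rest of the messenger pool.

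By mean level, most of the Pol I genes were at their highest 3 h after LPS. This depended on the scaling between libraries for some of them. With library size as the only scaling, Polr1a, Polr1e, Znrd1 and Ubtf had small positive changes from 3 h to 10 h. The subunits Polr1a, Polr1b, Polr1c and Polr1e fell again in plasmablasts. Of the 10, 7 passed the test as higher at 3 h than in naive cells and 0 as lower, where a pass means an adjusted p below 0.05 for a change beyond 1.5-fold (glmTreat of edgeR, a quasi-likelihood test, adjusted over 12750 genes). Among all tested genes 21.0% passed as higher and 24.3% as lower. The median log2 fold change of the 10 was 1.43, against -0.03 over all tested genes. The 7 were Polr1b, Polr1e, Rrn3, Polr1a, Twistnb, Polr1c and Taf1d. Polr1d, Znrd1 and Ubtf were higher by less, and passed only the test without a fold threshold, edgeR's quasi-likelihood F-test, which all 10 passed as higher (background 34.7% higher, 36.3% lower).

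From 3 h to 10 h, 2 of the 10 passed as lower, Polr1b and Twistnb, and 0 as higher (background 13.4% lower and 17.4% higher). All 10 fitted log2 changes were negative, with a median of -0.39 against 0.02 over all tested genes, but when libraries were scaled by their size alone neither gene passed and Polr1a, Polr1d, Polr1e, Znrd1 and Ubtf turned to small positive values. The rise from naive cells to 3 h gave 6 to 7 calls under each scaling tried and when any 1 library was left out. Without a fold threshold 7 of the 10 were lower from 3 h to 10 h and 0 higher (background 30.2% lower, 32.1% higher). From 10 h to 33 h none of the 10 passed in either direction (background 10.1% higher, 4.45% lower), also at an unadjusted p below 0.05. Without a fold threshold the F-test called 3 lower (background 22.2% lower, 23.2% higher), 5 at an unadjusted p below 0.05. The DESeq2 Wald test called 3 lower, where it called 2521 of all 12750 genes lower and 3054 higher.

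Between 33 h and the expanded cells Polr1b alone passed, as lower (background 3.66% lower, 6.94% higher), and the median of the 10 was -0.28 against -0.02 over all tested genes. At the step from expanded cells to plasmablasts 4 of the 10 passed as lower and 0 as higher (background 12.2% lower, 13.9% higher). They were Polr1e, Polr1c, Polr1a and Polr1b, and the median of the 10 was -0.66 against -0.05 over all tested genes. The initiation factor Rrn3 had a log2 change of -0.77, next to -0.78 for Polr1b, but did not pass. The subunits Twistnb, Polr1d and Znrd1 did not pass either. The F-test called 8 lower (background 29.7% lower, 27.2% higher). With the fold threshold the count was smaller when any 1 of the 4 libraries compared was left out, and larger without 3 h replicate 2. It was 3 with DESeq2 size factors or with at least 10 counts required in every library. It was 5 without a filter on low counts or with only the 4 libraries compared. It was 7 with library size as the only scaling, where 2953 of all 12750 tested genes were lower and 1181 higher. Comparing the ends of the series, naive cells and plasmablasts, only Taf1d passed, as higher (background 26.6% higher, 23.4% lower), and the median of the 10 was -0.15 against 0.02. Without a fold threshold 3 were higher and 4 lower (background 38.2% higher, 35.9% lower). Neighbouring comparisons share the libraries of the stage between them, so a high value at 3 h enters both the rise before it and the fall after it.

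**Figure D1:**
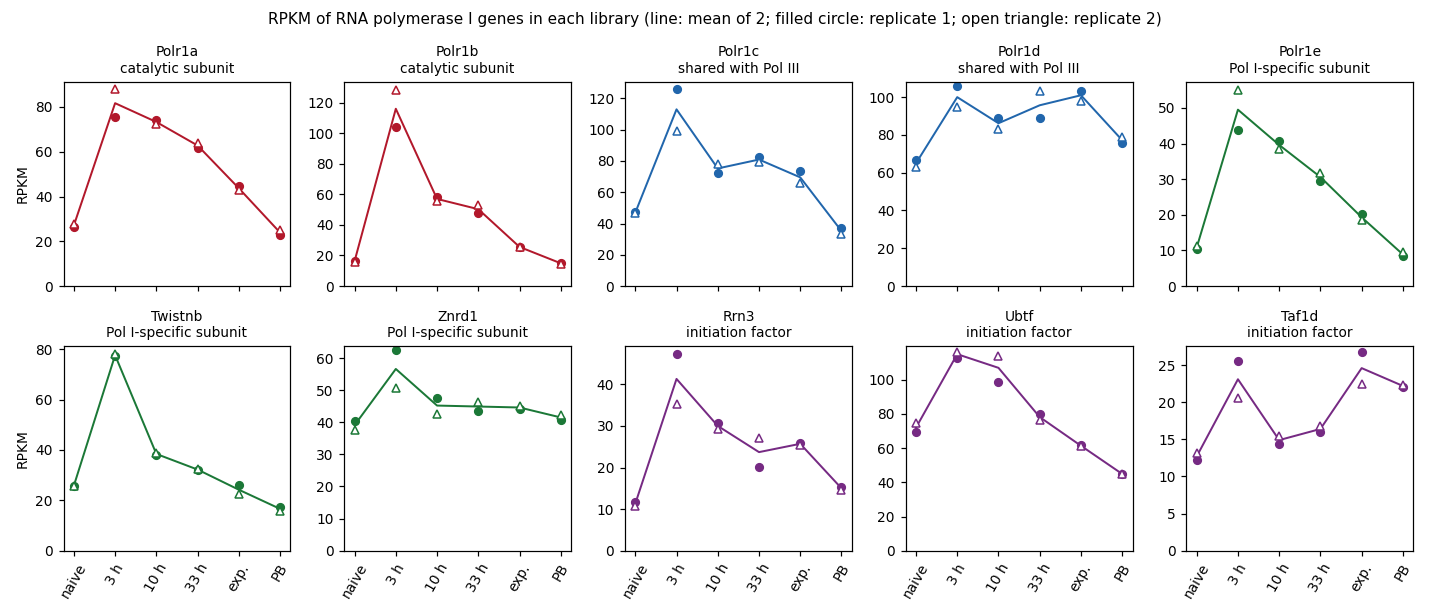
Level of each of the 10 genes in RPKM (linear vertical axes from 0) in the 12 libraries, by stage (exp., expanded; PB, plasmablast), coloured by role. Filled circles are replicate 1, open triangles replicate 2 and the line joins the means of 2. The mean was highest at 3 h for 8 genes. Polr1d and Taf1d had their highest mean in expanded cells, but these libraries overlapped with those of 3 h. With library size as the only scaling, Polr1a, Polr1e, Znrd1 and Ubtf had small positive changes from 3 h to 10 h.

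**Figure D2:**
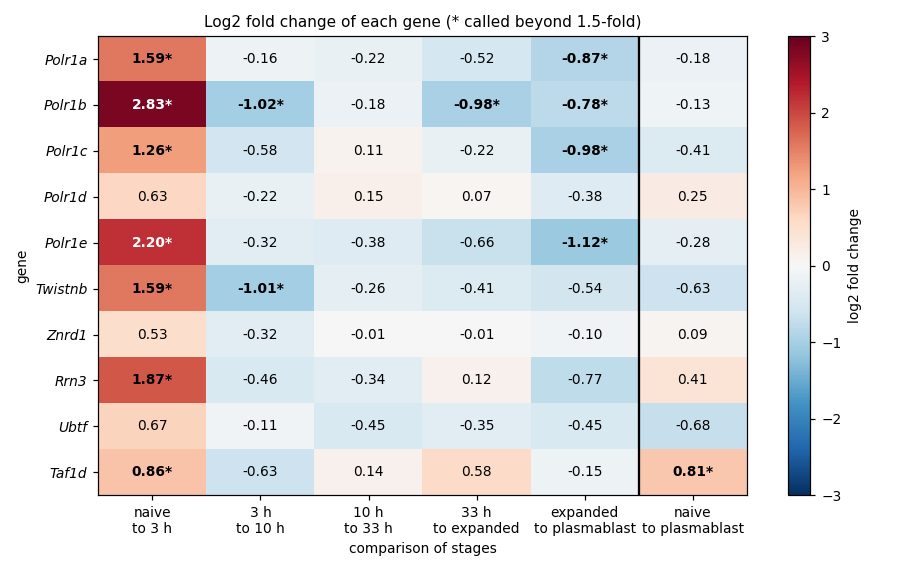
Fitted log2 fold change of each gene (rows) in the 5 steps of the series and, right of the black line, from naive cells to plasmablasts. Red is higher in the later stage and blue lower, and a star marks a change beyond 1.5-fold at an adjusted p below 0.05. The first column ranges from 0.53 (Znrd1) to 2.83 (Polr1b) and holds 7 stars.

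The catalytic subunits Polr1a and Polr1b moved in the same direction but by unequal amounts. Polr1a encodes RPA1, the largest subunit (chr6:71909053-71979435). Its level, in counts per exon length and library size (RPKM, replicate 1 and then replicate 2), was 26.5 and 27.7 in naive cells, then 75.5 and 88.0 by 3 h, 74.2 and 72.3 by 10 h, 61.8 and 63.7 by 33 h, 44.7 and 42.7 among expanded cells and 22.6 and 25.1 among plasmablasts. Apart from the naive cells, each stage was lower than the one before it, and no stage overlapped with its neighbour in that order of levels. The first of these steps were small, with log2 -0.16 ± 0.09 from 3 h to 10 h and -0.22 ± 0.09 from 10 h to 33 h. Neither step passed either test, and the first turned positive with library size as the only scaling. The rise at 3 h was 3.02-fold (log2 1.59 ± 0.09 SE, adjusted p = 1.3e-07 by glmTreat). The fall from expanded cells to plasmablasts was 1.83-fold (log2 -0.87 ± 0.09, adjusted p = 0.0043 by glmTreat) and did not pass without plasmablast replicate 1 (adjusted p = 0.084). Naive cells and plasmablasts stood at the bottom, with a fitted difference of -0.18 ± 0.09 (log2) that passed neither test. Polr1a overlaps the annotated genes Gm19078 and Gm26628, and whether strand was used in counting is not given in the sources used here.

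Polr1b encodes RPA2, which forms the active centre with RPA1 (chr2:129100970-129128060). It showed the greatest change of the 10 genes. Its level was 16.6 and 15.9 RPKM before activation, 104 and 128 after 3 h, 58.3 and 55.8 after 10 h, 47.7 and 53.0 after 33 h, 25.7 and 25.5 in the expanded stage and 15.1 and 14.7 in plasmablasts. The 3 h libraries stood far above the rest, and the plasmablast libraries lay just under the naive ones. The rise at 3 h was 7.11-fold (log2 2.83 ± 0.11, adjusted p = 6.9e-10 by glmTreat). It was followed by falls of 2.03-fold by 10 h (log2 -1.02 ± 0.10, adjusted p = 4.9e-04) and 1.97-fold from 33 h to expanded cells (log2 -0.98 ± 0.10, adjusted p = 0.0030). The last fall, to plasmablasts, was 1.72-fold (log2 -0.78 ± 0.10, adjusted p = 0.041). That last call was near the threshold and did not pass when any one of the 4 libraries compared was left out (adjusted p from 0.087 to 0.18), with DESeq2 size factors (0.071) or with at least 10 counts required in every library (0.066).

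Both subunits stand in equal number in the polymerase, and their messenger ratio within a library was followed as well. The ratio of Polr1b to Polr1a RPKM was 0.627 and 0.576 (naive), 1.37 and 1.45 (3 h), 0.785 and 0.772 (10 h), 0.771 and 0.831 (33 h), 0.575 and 0.597 (expanded) and 0.670 and 0.584 (plasmablast). Only at 3 h was Polr1b the higher of the pair, and neither 3 h library overlapped with any other. A ratio within a library does not change with the scaling between libraries. It compares levels per length of the exons counted, and was not tested.

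**Figure D3:**
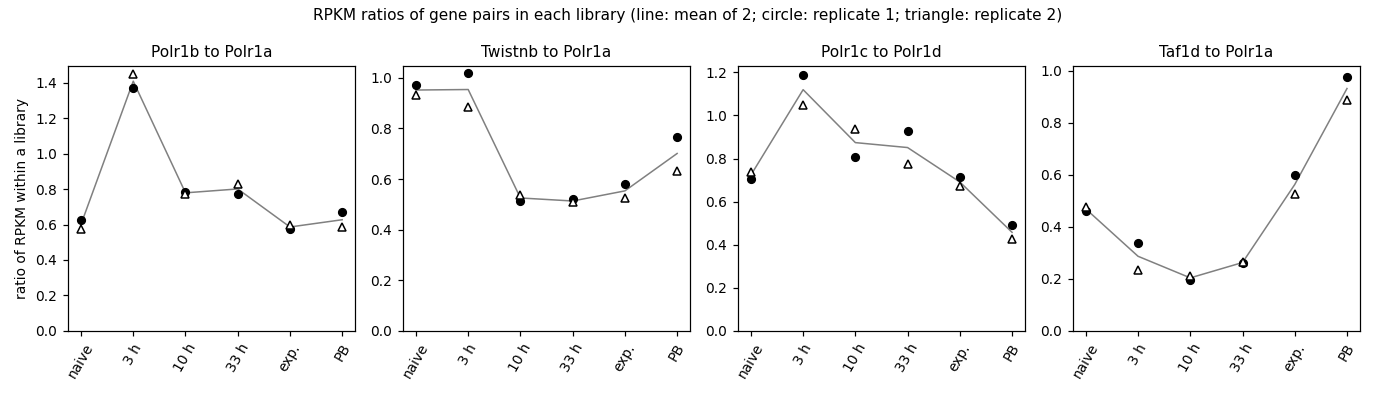
Ratio of RPKM between pairs of the genes within each library, by stage (circles replicate 1, triangles replicate 2, line through the means of 2). Polr1b to Polr1a peaks at 1.37 and 1.45 at 3 h. Twistnb to Polr1a drops after 3 h, Polr1c to Polr1d is lowest in plasmablasts, and Taf1d to Polr1a is lowest at 10 h and highest in plasmablasts.

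Polr1c and Polr1d encode RPAC1 and RPAC2, the pair of assembly subunits that Pol I shares with Pol III, and mutations of either cause Treacher Collins syndrome in people. Polr1c (chr17:46243920-46248045) measured 47.3 and 46.6 RPKM in naive cells, then 126 and 99.4 by 3 h, 72.1 and 78.2 by 10 h, 82.4 and 79.5 by 33 h, 73.3 and 65.8 among expanded cells and 37.1 and 33.4 among plasmablasts. Its 3 h libraries were above the others and its plasmablast libraries below them, with 10 h and expanded cells overlapping in between. It rose 2.40-fold at 3 h (log2 1.26 ± 0.11, adjusted p = 2.3e-05 by glmTreat) and fell 1.97-fold from expanded cells to plasmablasts (log2 -0.98 ± 0.11, adjusted p = 0.0026).

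Polr1d (chr5:147076715-147111361) varied much less. The naive replicates stood at 66.9 and 63.1 RPKM, those of 3 h at 106 and 94.7, 10 h at 89.1 and 83.3, 33 h at 88.8 and 103, expanded cells at 103 and 98.1 and plasmablasts at 75.7 and 78.7. Its highest stage mean was only 1.55 times its lowest, and the stages from 3 h to expanded cells overlapped in the order of levels, while both plasmablast libraries stayed above both naive ones. No step passed the test beyond 1.5-fold, and at 3 h the log2 change was 0.63 ± 0.10 (adjusted p = 0.26 by glmTreat, 5.9e-05 without a fold threshold). The row sums the transcripts of a gene with several annotated protein isoforms, and the pseudogene Rps10-ps4 lies within it.

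The messengers of this pair did not keep a fixed ratio. Polr1c to Polr1d RPKM was 0.706 and 0.739 before activation, 1.19 and 1.05 after 3 h and 0.489 and 0.424 in plasmablasts, with the remaining stages from 0.671 to 0.939. The 3 h libraries were above all others and the plasmablast libraries below all others.

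Polr1e, Twistnb and Znrd1 encode subunits particular to Pol I. Polr1e encodes PAF53, a subunit of the Pol I-specific heterodimer that acts in initiation and elongation (chr4:45018609-45034279). Its level was 10.3 and 11.3 RPKM before activation, 43.9 and 55.0 after 3 h, 40.8 and 38.4 after 10 h, 29.4 and 31.7 after 33 h, 20.2 and 18.5 in the expanded stage and 8.30 and 9.44 in plasmablasts. It had the same order of stages as Polr1a, with no overlap between neighbours. Its change from 3 h to 10 h, log2 -0.32 ± 0.11, passed only the test without a fold threshold. With library size as the only scaling that change turned to a small positive value. The rise was 4.59-fold at 3 h (log2 2.20 ± 0.12, adjusted p = 2.8e-08 by glmTreat) and the fall to plasmablasts 2.18-fold (log2 -1.12 ± 0.12, adjusted p = 4.4e-04), the largest of the 10 at that step. Over the 12 libraries its log2 RPKM followed that of Polr1a with Pearson r = 0.998, a description over libraries that share stages. Its annotated span overlaps that of Fbxo10 by 32 bases.

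Twistnb encodes RPA43, the stalk subunit that contacts RRN3 (chr12:33429624-33439380). It read 25.7 and 25.8 RPKM (naive), 77.1 and 78.0 (3 h), 38.1 and 38.8 (10 h), 32.1 and 32.4 (33 h), 26.0 and 22.5 (expanded) and 17.4 and 15.9 (plasmablast). Its replicates were close at 3 h, where those of most other genes spread, and expanded cells had returned to the range of naive cells. It rose 3.01-fold at 3 h (log2 1.59 ± 0.09, adjusted p = 1.3e-07 by glmTreat), about as much as Polr1a. Where Polr1a then had a log2 change of -0.16 ± 0.09, Twistnb fell 2.02-fold by 10 h (log2 -1.01 ± 0.09, adjusted p = 2.6e-04), a call that did not pass with library size as the only scaling (log2 -0.68, adjusted p = 0.13). The ratio of Twistnb to Polr1a was 1.02 and 0.886 at 3 h but 0.513 and 0.537 at 10 h. These ratios, which no scaling alters, did not overlap.

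Znrd1 encodes RPA12, the small subunit that supports RNA cleavage and termination (chr17:36954358-36958525). Its highest stage mean was 1.45 times its lowest, the narrowest range of the 10. It was at 40.4 and 37.7 RPKM in naive cells, then 62.4 and 50.7 by 3 h, 47.7 and 42.7 by 10 h, 43.5 and 46.4 by 33 h, 44.2 and 45.0 among expanded cells and 40.6 and 42.4 among plasmablasts. The 3 h libraries were above the rest, and the later stages lay close together. With library size as the only scaling, its change from 3 h to 10 h turned to a small positive value. None of its comparisons passed the test beyond 1.5-fold, and the change at 3 h was 0.53 ± 0.12 on the log2 scale (adjusted p = 0.62 by glmTreat, 0.0011 without a fold threshold). From expanded cells to plasmablasts its log2 change was -0.10 ± 0.11, next to -1.12 ± 0.12 for Polr1e.

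Among the initiation factors, Rrn3 (TIF-IA) rose most (chr16:13780699-13814841). It was at 11.8 and 10.8 RPKM before activation, 47.3 and 35.3 after 3 h, 30.7 and 29.3 after 10 h, 20.2 and 27.1 after 33 h, 26.0 and 25.3 in the expanded stage and 15.3 and 14.7 in plasmablasts. Naive cells were the lowest stage and their libraries lay below those of every other stage. The replicates were 0.42 apart on the log2 scale at 3 h, the widest spread there, and at 33 h too. The rise at 3 h was 3.65-fold (log2 1.87 ± 0.15, adjusted p = 1.6e-06 by glmTreat). The change to plasmablasts, log2 -0.77 ± 0.15, missed the threshold (adjusted p = 0.12), and it passed without a filter on low counts (0.039), without 3 h replicate 2 (0.047), with only the 4 libraries compared (0.0062) and with library size alone (0.0012). Between naive cells and plasmablasts the log2 difference was 0.41 ± 0.15, which passed only the test without a fold threshold (adjusted p = 0.023 by the quasi-likelihood F-test).

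Ubtf encodes UBF, the architectural factor of active ribosomal DNA (chr11:102304560-102323649), and its splice forms are summed in 1 row. Levels were 69.5 and 74.6 RPKM (naive), 113 and 116 (3 h), 98.8 and 114 (10 h), 79.8 and 76.5 (33 h), 61.8 and 61.0 (expanded) and 44.8 and 45.0 (plasmablast). It was the most abundant messenger of the 10 per length in naive cells, overlapped between 3 h and 10 h, and ended below the naive level. Neither the change at 3 h (log2 0.67 ± 0.08, adjusted p = 0.11 by glmTreat) nor the difference between naive cells and plasmablasts (log2 -0.68 ± 0.08, adjusted p = 0.088) passed beyond 1.5-fold. Both passed without a fold threshold (adjusted p = 9.3e-06 and 7.4e-06 by the quasi-likelihood F-test). The difference between the ends passed beyond 1.5-fold with library size alone (adjusted p = 2.3e-04), with only the 4 libraries compared (0.0067) and without 3 h replicate 2 (0.033).

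Taf1d, which encodes a TBP-associated factor of SL1 (chr9:15305953-15316997), had a course of its own. Levels were 12.2 and 13.2 RPKM in naive cells, then 25.5 and 20.6 by 3 h, 14.4 and 15.4 by 10 h, 16.0 and 16.8 by 33 h, 26.8 and 22.4 among expanded cells and 22.1 and 22.3 among plasmablasts. It was high at 3 h and again on day 4, so that plasmablast libraries stood above both naive libraries. The rise at 3 h was 1.81-fold (log2 0.86 ± 0.13, adjusted p = 0.015 by glmTreat) and plasmablasts were 1.75-fold above naive cells (log2 0.81 ± 0.12, adjusted p = 0.029). Both calls were near the threshold. The first did not pass without naive replicate 1 (0.078), without 3 h replicate 1 (0.12), with only the 4 libraries compared (0.053) or with library size alone (0.23). The second did not pass without naive replicate 1 (0.12), plasmablast replicate 1 (0.057) or plasmablast replicate 2 (0.066), without a filter on low counts (0.069) or with library size alone (0.61).

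Between 33 h and expanded cells Taf1d was the only one of the 10 that was higher by the test without a fold threshold (log2 0.58 ± 0.12, adjusted p = 0.0021 by the quasi-likelihood F-test, background 18.5% higher), where 5 others were lower (background 21.2%). Its correlation with the mean of the other 9 genes over the 12 libraries was r = 0.225, while for those 9 it ran from 0.735 (Ubtf) to 0.954 (Rrn3). Taf1d hosts small nucleolar RNA genes in its introns, and 10 annotated genes overlap it, 6 of them snoRNAs. Among the other overlapping genes are 4931406C07Rik and Cep295, so reads of its row may in part belong to them.

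Summed over the 10 genes, the messengers made up 799 and 799 CPM of all counts before activation, 1798 and 1940 after 3 h, 1777 and 1809 after 10 h, 1419 and 1502 after 33 h, 1155 and 1094 in the expanded stage and 556 and 555 in plasmablasts. On this scale, which has no further scaling between libraries, 3 h and 10 h overlapped and plasmablasts were the only stage under naive cells. The sum gives long and abundant messengers most weight. Agreement between replicates was weakest at 3 h, where the median absolute log2 ratio between the replicates over the 10 genes was 0.30, against 0.06 to 0.09 at the other stages. At that stage Polr1a, Polr1b, Polr1e, Ubtf and Twistnb were higher in replicate 2 and the other 5 genes in replicate 1, which had the lowest total count of the series.

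The 5 genes whose log2 RPKM over the 12 libraries was most like the mean standardized course of the 10 were Dnaja2 (r = 0.995), Syncrip (0.991), Nmd3 (0.991), Ercc8 (0.990) and Dhx15 (0.990). Dnaja2 encodes an HSP40 co-chaperone, Syncrip an RNA-binding protein, Nmd3 the export adaptor of the large ribosomal subunit, Ercc8 a transcription-coupled repair factor and Dhx15 a helicase that releases spliceosomes. Only Dnaja2 was also among the top 5 when the 6 stage means were used. The 12 points share their stages in pairs, so these values describe likeness and carry no test.

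The genes around the 10 in the transcription machinery were read from the same fit. Of 6 tested other Pol I factors, 3 were higher at 3 h and none lower (Taf1b, at log2 -0.66 ± 0.10, had an adjusted p of 0.15 by glmTreat and passed without a fold threshold), with a median log2 change of 0.75, where 21.0% of all tested genes were higher and 24.3% lower. Cavin1 did not pass the filter on low counts. Cd3eap, now named Polr1g, encodes PAF49, the partner of PAF53 in their heterodimer, and rose most. It measured 7.06 and 7.33 RPKM (naive), 52.2 and 56.9 (3 h), 27.4 and 25.2 (10 h), 24.9 and 32.1 (33 h), 16.7 and 17.1 (expanded) and 8.65 and 8.74 (plasmablast). The rise (log2 2.92 ± 0.13, adjusted p = 1.9e-09) was followed by falls at 10 h (log2 -1.05 ± 0.12, adjusted p = 8.4e-04) and in plasmablasts (log2 -0.96 ± 0.12, adjusted p = 0.0050). Cd3eap overlaps Ercc1 on the genome, so the limit on strand named above holds for it too. Taf1a (1.61 ± 0.16) and Taf1c (1.06 ± 0.10), which encode subunits of SL1, were the other members of the list that rose.

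Of the 5 subunits shared by Pol I, II and III, 3 were higher at 3 h (background 21.0% higher, 24.3% lower), led by Polr2h (log2 1.54 ± 0.14, adjusted p = 9.8e-06 by glmTreat), and Polr2h was again the one that fell in plasmablasts (log2 -1.34 ± 0.15, adjusted p = 1.6e-04). Polr2h stood at 42.2 and 39.9 RPKM after 10 h and at 38.7 and 39.6 after 3 h, a log2 change of 0.07 ± 0.13 where Polr1b had -1.02 ± 0.10. From 3 h to 10 h Polr2e alone of this list passed, as higher (log2 0.85 ± 0.09, adjusted p = 0.0045).

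The 8 Pol II subunits had a median log2 change of 0.23 at 3 h, 2 of them higher and 1 lower, a count near or under the background of 21.0% higher and 24.3% lower. Polr2d was the one with the largest rise (log2 1.23 ± 0.13, adjusted p = 8.9e-05 by glmTreat). Polr2g, which encodes the stalk subunit RPB7, moved the other way, from 55.3 and 57.3 RPKM in naive cells to 24.7 and 22.8 at 3 h and 109 and 103 at 10 h (log2 -1.24 ± 0.10 and then 2.16 ± 0.10, adjusted p = 6.6e-06 and 2.6e-08). At 10 h it was above its naive level, as was the mean level of every Pol I gene followed here.

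Of 11 Pol III subunits 5 were higher and 1 lower at 3 h, with a median of 0.76, and of 11 Pol III factors 3 were higher and 1 lower, with a median of 0.33. The background was 21.0% higher and 24.3% lower, so the count of factors was close to it or under it. Polr3g and Polr3gl, whose products take the same place in Pol III, moved in opposite directions. Polr3g went from 3.09 and 2.81 RPKM in naive cells to 12.4 and 16.1 at 3 h (log2 2.27 ± 0.16, adjusted p = 2.0e-07 by glmTreat), and Polr3gl from 12.9 and 13.9 to 3.18 and 3.49 (adjusted p = 9.0e-07). In plasmablasts Polr3gl, at 9.12 and 8.33 RPKM, was again above Polr3g, at 2.38 and 2.64. Among the factors, Gtf3c4 rose most (log2 1.95 ± 0.13) and Gtf3a, the 5S ribosomal RNA factor TFIIIA, fell (log2 -1.24 ± 0.17), and from 3 h to 10 h both turned back (-1.39 ± 0.12 and 1.54 ± 0.16).

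Regulators of ribosomal DNA and Pol I, a list of 15 genes, had a median log2 change of 1.32 at 3 h, 9 of them higher and 1 lower (background 21.0% higher, 24.3% lower). Myc, which drives ribosome biogenesis genes, had 31.1 and 28.9 RPKM in naive cells, then 835 and 706 by 3 h, 138 and 139 by 10 h, 74.2 and 78.5 by 33 h, 37.4 and 39.8 among expanded cells and 27.0 and 35.0 among plasmablasts. It rose by log2 4.68 ± 0.13 (adjusted p = 1.1e-10 by glmTreat) and fell at each of the next 3 steps, by 2.47, 0.86 and 0.98 on the log2 scale. The one that fell at 3 h was Kdm2a (log2 -0.85 ± 0.11, adjusted p = 0.0074), a histone demethylase. In plasmablasts 6 of the 15 were lower than in expanded cells (background 12.2% lower, 13.9% higher), with Npm1 (nucleophosmin) changing most (log2 -1.65 ± 0.09, adjusted p = 2.0e-07), and the list's median was -0.58, next to -0.66 for the 10 Pol I genes.

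**Figure D4:**
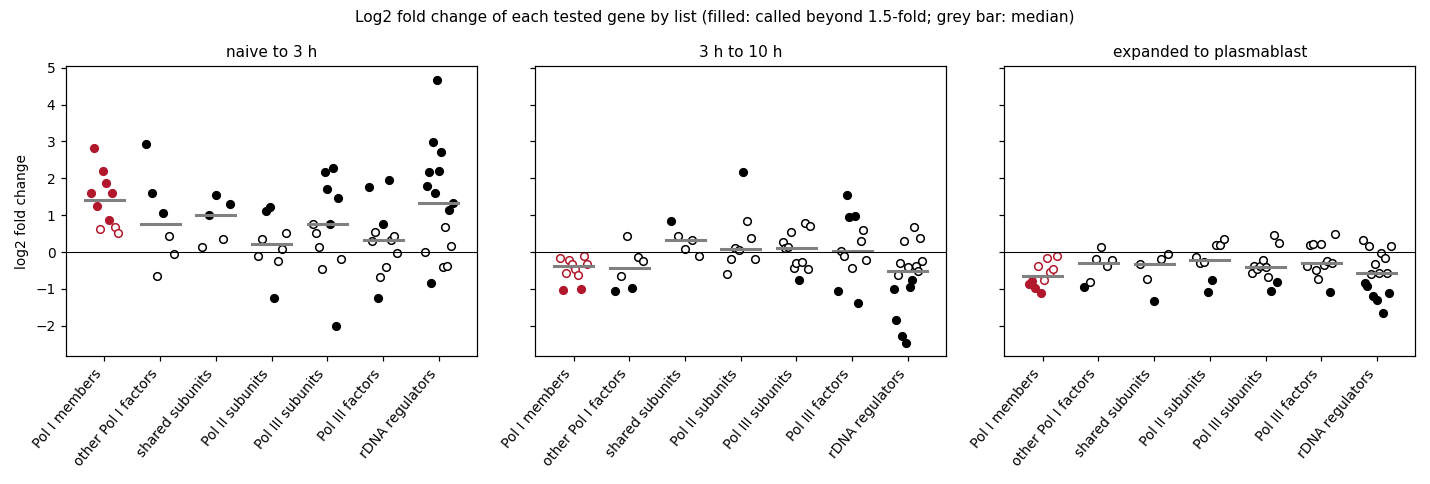
Log2 fold change of each tested gene of the 10 Pol I genes (red) and of 6 lists of related genes (black) at 3 steps. Filled points passed beyond 1.5-fold at an adjusted p below 0.05, open points did not, and grey bars are medians. At naive to 3 h the medians are 1.43 for the Pol I genes, 0.23 for Pol II subunits and 1.32 for the regulators of ribosomal DNA.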

How the data were processed

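Sorted B cells were profiled by polyadenylated RNA sequencing (TruSeq RNA libraries). Per the labels and the study's methods, the authors mapped reads with Rsubread (build mm10) and made gene counts with featureCounts on its inbuilt Entrez annotation. CASAVA 1.8.2 is named in the submitters' processing notes. The deposited values are whole-number counts per gene, not normalized, with an exon length per gene, and the 12 single-sample files are identical to the table of the series. The use of strand in counting is not given in the sources used here.

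Of 27179 genes, 23700 were kept after removal of 1279 genes on X or Y, 15 mitochondrial, 33 rRNA, 248 variable immunoglobulin and 1904 genes with no match in the RefSeq table (GRCm38.p6, the coordinates of mm10). All 10 genes were among the 12750 that passed filterByExpr, a filter on low counts. Counts were scaled by TMM and fitted in edgeR 4.0.16 (R 4.3.3, limma 3.58.1) with robust quasi-likelihood dispersions in 1 layout of 6 stages, as in the study. Each contrast was tested with glmTreat against 1.5-fold, and Benjamini-Hochberg adjustment ran over all tested genes at 0.05. SE is the absolute log2 fold change divided by the square root of the quasi-likelihood F. RPKM used TMM-scaled library sizes and the deposited lengths. Only CPM sums were set against all counts of a library.

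The Pol I genes and the related lists were chosen with earlier results of these data known. Besides the 10 genes, text names the called gene with the largest rise and fall of each list at a comparison and the 5 genes most like their mean course. Taf1a, Taf1b and Taf1c were named, and Polr2h from 3 h to 10 h and Polr3g and Polr3gl in plasmablasts described, after their values were seen. Lists: other Pol I factors (Polr1g, Taf1a, Taf1b, Taf1c, Tbp, Ttf1, Cavin1), shared subunits, Pol II subunits, Pol III subunits, Pol III factors and regulators of ribosomal DNA. Replicates are biological per the study, but whether a replicate number marks a mouse is not stated, so p-values measure the spread between these samples. Alternatives changed the scaling, filter, dispersion, tool, gene removal, samples and replicate block, and DESeq2 1.42.0 was one of them. The 12 libraries were left out in turn.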

Additional observations from a re-analysis of the deposited data

How the results depend on the processing

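Of 1380 recomputed log2 fold changes of the 10 genes, 1274 kept direction and side of the threshold, 18 lost a call, 63 gained one and 25 changed sign, none of these a called value. Most of the gained calls came from the F-test and the DESeq2 Wald test, which have no fold threshold. None of the 18 lost calls did. With library size as the only scaling, the median of all genes moved by -0.21 from naive cells to 3 h, 0.33 from 3 h to 10 h, -0.34 to plasmablasts from expanded cells and -0.28 from naive cells to plasmablasts. The split of all calls then became 2091 higher and 3716 lower (in place of 2674 and 3100), 3432 and 1004 (2221 and 1711), 1181 and 2953 (1776 and 1553) and 2730 and 3884 (3386 and 2985). Counts of the 10 genes became 0 lower from 3 h to 10 h, 7 lower from expanded cells to plasmablasts, and 0 higher and 2 lower from naive cells to plasmablasts. Sign changes under it were Polr1a 0.17, Polr1d 0.11, Polr1e 0.01, Znrd1 0.02 and Ubtf 0.22 from 3 h to 10 h, and Polr1d -0.04 and Znrd1 -0.20 from naive cells to plasmablasts. The cause was not tested.

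Without a fold threshold, where smaller changes can pass by construction, the F-test and the DESeq2 Wald test called 7 and 9 lower from 3 h to 10 h, 3 and 3 lower from 10 h to 33 h, 1 and 1 higher and 5 and 5 lower from 33 h to expanded cells, and 8 and 8 lower from expanded cells to plasmablasts. From naive cells to plasmablasts they called 3 and 3 higher and 4 and 3 lower. Over all 12750 genes the Wald test called 4176 lower from 3 h to 10 h and 2521 lower from 10 h to 33 h. From 33 h to expanded cells it called 2373 higher and 2479 lower, and from expanded cells to plasmablasts 3484 lower. Between naive cells and plasmablasts it called 4800 higher and 4408 lower. For that pair of stages no filter on low counts gave 0 higher, and a fit of only the 4 libraries compared gave 1 lower.

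Leaving out 1 library gave 6 to 7 higher at 3 h, 2 lower from 3 h to 10 h, 1 lower from 33 h to expanded cells, 2 to 5 lower from expanded cells to plasmablasts (2 without plasmablast replicate 1), and from naive cells to plasmablasts 0 to 1 higher and 0 to 1 lower. The higher call was lost without naive replicate 1 or either plasmablast replicate, and the lower one appeared without 3 h replicate 2. Where 1 library of a stage remained, it was assumed to vary like the other stages. From 33 h to expanded cells these fits gave -0.03 to 0.17 for Polr1d and -0.08 to 0.34 for Rrn3, both negative only without 33 h replicate 1. Znrd1, near 0, ranged from -0.09 to 0.08 from 10 h to 33 h and from -0.06 to 0.03 from 33 h to expanded cells, and changed sign to between 0.00 and 0.03 with DESeq2 size factors (0.02 at each step), the DESeq2 Wald test, other filters (0.00 or 0.02) and the 4 libraries compared alone (0.02 and 0.03).

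Over 15 pairs of stages the correlation of deviations between the replicates ran from -0.14 to 0.08. A low correlation cannot show whether samples with the same number shared a mouse or a culture, so pairing stays undecided. With the replicate block the 10 genes gave the same counts, 7 higher at 3 h, then 2 lower, 0, 1 lower and 4 lower, and 1 higher from naive cells to plasmablasts. The changes of Polr1d, Znrd1 and Ubtf at 3 h, and of Ubtf between naive cells and plasmablasts, lay close to 1.5-fold.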
